A study of Mus musculus with 214 samples.

Results

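The comparison asks what the loss of Mgmt alone did to the liver transcriptome of mouse pups that received only saline. It took every deposited column with treatment saline, collection at day 1 and sequencing run 191212Eng, which gave 16 libraries, 8 Mgmt-/- and 8 WT, of 213 deposited columns. Both genotypes were homozygous for 2 reporter transgenes, written RaDR+/+ (recombination) and GPT+/+ (the gpt delta mutation reporter) in the labels, on a C57BL/6 background, and the Mgmt-/- mice additionally lacked Mgmt in the germline, so the loss was present in every cell from conception. Each group held 4 males and 4 females. The pups were injected with saline at postnatal day 8 (10 µL) and at postnatal day 15 (20 µL), and the liver was taken 1 day after the second injection. Groups used for comparison were pups of the same genotypes and run given NDMA at 3.5 mg/kg on postnatal day 8 and 7 mg/kg on postnatal day 15, with the liver taken 1 day later, and saline mice of run 200803Eng taken either 1 day or 10 months after the injections. RNA was measured by 3′ digital gene expression, in which reads are counted at the end of each transcript. The methods describe the controls as littermates and treatment as assigned by litter, but the labels name no litter. The methods also state that separate litters were used where possible. Mice of a group may still share litters, which could not be checked, and the p-values below measure the spread between these mice only.

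Each genotype had been normalised in a table of its own, so whole reads were recovered from both tables, joined on 18287 shared gene symbols and normalised together. The Mgmt-/- libraries held 2577847 to 4223946 reads and the WT libraries 2064679 to 3741152. Values are given as reads per 1000000 reads (CPM), which are not divided by transcript length and are therefore compared only between libraries. Where markers are summed, the member with the most reads is named, which does not rank the genes by level. Xist, the RNA that silences one X chromosome in females, lay at 177 to 319 CPM in the 8 females and at or below 0.474 CPM in the 8 males. Ddx3y, on the Y chromosome, lay at 48.2 to 83.3 CPM in the males and at or below 0.404 CPM in the females, so the labelled sexes matched in all 16 libraries. The hepatocyte markers had many reads in every library, with Alb at 58951 ± 7617 CPM in Mgmt-/- and 54173 ± 7720 CPM in WT (SD, n = 8 each).

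MGMT (O6-methylguanine-DNA methyltransferase) removes alkyl groups from the O6 position of guanine by transferring them to a cysteine of its own, and each protein molecule acts once and is then degraded. Unrepaired O6-methylguanine pairs with thymine at replication, which leaves a G-to-A change or engages mismatch repair. Liver is the main organ in which nitrosamines such as N-nitrosodimethylamine (NDMA) are activated to alkylating species, and it expresses MGMT. Saline-injected pups carry the gene loss without the exogenous alkylating agent.

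Mgmt lies on chromosome 7 (GRCm38, chr7:136894614-137130266, plus strand, GENCODE vM21). The 250 bases before its annotated RefSeq start (GRCm38.p6, chr7:136894336-136894585, plus strand, the first of 2 entries for the gene) are shown because this is the promoter of the one gene that was called. The GC boxes, the 6-letter motif GGGCGG searched on both strands and here read as CCGCCC, are in capitals.
Mgmt promoter: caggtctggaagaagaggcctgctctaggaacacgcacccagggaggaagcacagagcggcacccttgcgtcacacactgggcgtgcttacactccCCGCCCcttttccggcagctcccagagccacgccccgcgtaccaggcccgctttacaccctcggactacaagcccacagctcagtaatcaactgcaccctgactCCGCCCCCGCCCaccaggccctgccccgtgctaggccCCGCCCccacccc
The window held 4 GC boxes, 0 copies of TATAAA on either strand, 15 CpG dinucleotides and 67.2% G and C. Over all 32851 promoter windows of this length, 32.7% held a GC box, 4.09% held at least 4, 12.4% held TATAAA and 27.3% held at least 15 CpG. The median window had 6 CpG and 52.4% G and C. These counts describe the letters of the reference and not binding.

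Mgmt RNA was nearly absent from the Mgmt-/- livers. In WT livers it ranged from 25.3 to 42.7 CPM with a median of 30.7, and the 8 libraries together held 688 reads. In Mgmt-/- livers it ranged from 0 to 3.95 CPM with a median of 0.337, and the 8 libraries together held 18 reads. The groups did not overlap, and the highest Mgmt-/- library lay well below the lowest WT library. Of those 18 reads, 12 came from 1 female, replicate D389010. Mgmt was at 0 reads in 3 of the 8 Mgmt-/- libraries, where 3 reads would have given 0.711 to 1.01 CPM, so a level below that was not detectable. The mean was 0.746 ± 1.33 CPM in Mgmt-/- and 31.3 ± 5.86 CPM in WT (SD, n = 8 each). The log2 fold change was -5.46 (SE 0.41, 95% interval -6.30 to -4.61, adjusted p = 1.65e-08 by edgeR's quasi-likelihood test with a term for sex), and it was -6.68 without D389010.

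The same loss was measured in the other 3 comparisons of these genotypes. In saline pups of the second run, 200803Eng, Mgmt was at 21.3, 25.6, 34.0 and 88.0 CPM in 4 WT livers and at 0, 0, 1.01 and 1.29 CPM in 4 Mgmt-/- livers (log2 fold change -5.91, SE 0.64, adjusted p = 0.000516). The value of 88.0 CPM came from WT replicate D209074, a library that stood apart from its run as described with that run, and the log2 fold change was -5.23 without it. In saline mice taken 10 months after the injections it was at 25.5, 28.1 and 32.8 CPM in 3 WT livers and between 0 and 5.83 CPM in 12 Mgmt-/- livers (-4.27, adjusted p = 3.76e-06). In NDMA-treated pups of run 191212Eng it ranged from 24.5 to 93.7 CPM in 8 WT livers and from 0 to 4.75 CPM in 7 Mgmt-/- livers (-5.69, adjusted p = 3.99e-06). No Mgmt-/- library of any of the 4 comparisons reached the lowest WT library.

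**Figure D1:**
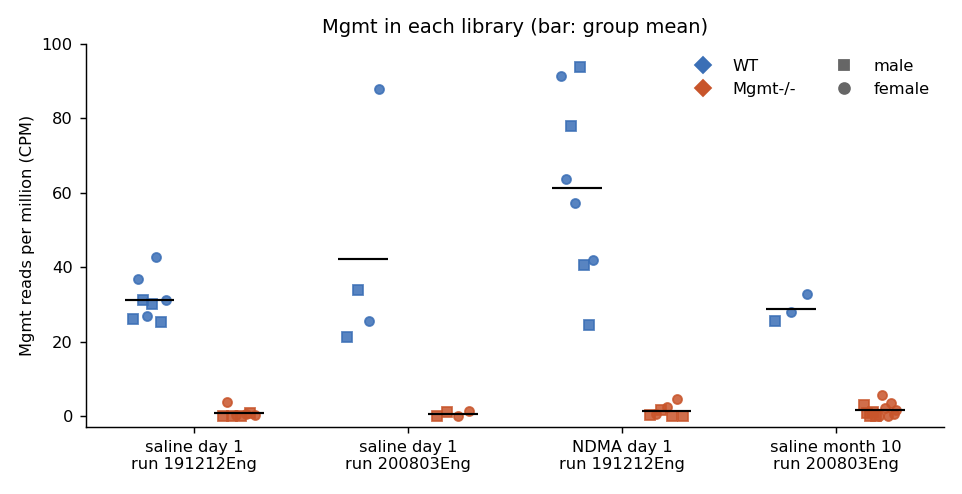
Mgmt CPM in each library of the 4 comparisons, with WT in blue, Mgmt-/- in orange, squares for males, circles for females and a bar at each group mean. In every comparison the WT libraries lie at 21.3 CPM or above and the Mgmt-/- libraries at 5.83 CPM or below.

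Apart from Mgmt itself, no gene passed the test in the saline pups. Of 8845 genes tested, 1 was called (0.0113%) at an adjusted p under 0.05 and a log2 fold change beyond 0.58 in either direction, and that gene was Mgmt. DESeq2 and limma on the same reads also called 1 gene each. At an unadjusted p under 0.05 edgeR counted 377 genes (4.26%), of which 236 were higher and 141 lower in Mgmt-/-, against 418 by DESeq2 and 425 by limma. As each mouse was left out, the edgeR count ranged from 266 of 8976 (without WT D389007) to 676 of 8859 (without Mgmt-/- D389004). With log2 total reads as a term it was 219. The share of 4.26% given beside the gene lists below is that of the fit with all libraries. The 8 values of one genotype lay wholly above or below the 8 values of the other for 2 genes (0.0226%), Mgmt and Eefsec. The median log2 fold change over all tested genes was 0.01.

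The width of the intervals sets what this comparison could have seen. The 95% interval of the log2 fold change lay inside ±0.58 for 4233 genes (47.9%) and inside ±1 for 8036 genes (90.9%). Among the 1057 genes with a mean of 100 CPM or more, 88.2% of intervals lay inside ±0.58 and 97.8% inside ±1. Among the 3261 genes under 10 CPM, 79.3% lay inside ±1, and the median half-width was 0.60. A change beyond 1 on the log2 scale thus lay outside most of these intervals at each level of abundance given.

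Other terms gave a yardstick in the same run and with the same test, added after the data were seen. The sex term of the same 16 libraries called 5 genes (0.0565%). These were Xist, Ddx3y, Eif2s3y and Uty, which lie on the sex chromosomes, and Cyp2c69, a cytochrome P450, with a log2 fold change of -0.90 in males against females. NDMA against saline called 865 of 8692 genes in WT pups (9.95%) and 1408 of 9296 genes in Mgmt-/- pups (15.1%).

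**Figure D2:**
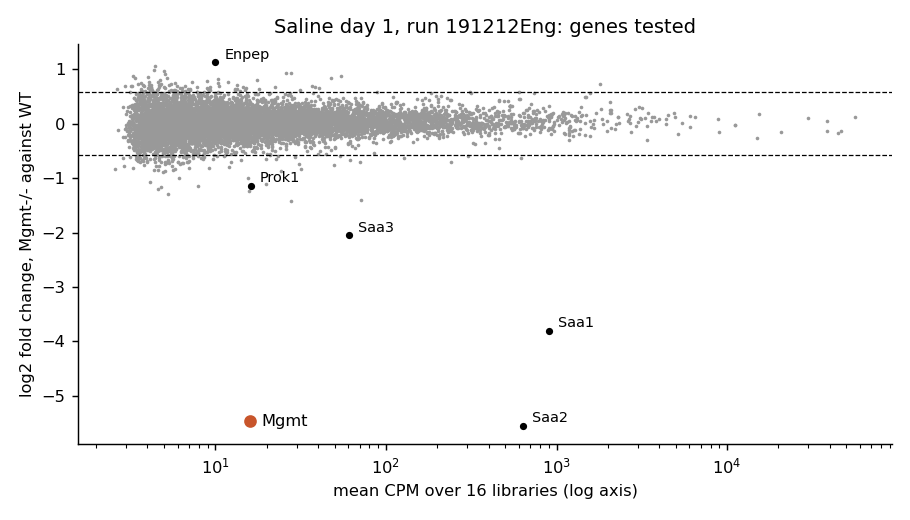
Log2 fold change of Mgmt-/- against WT for each of the 8845 tested genes against its mean CPM over 16 libraries on a log axis, with dashed lines at ±0.58. Mgmt at -5.46 is the one called gene, and Saa1, Saa2 and Saa3, which are not called, are genes in which 1 WT library lies far above the others.

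The genes next in the ranking were chosen for naming after their values were seen, and none of them passed the test. Enpep, a membrane aminopeptidase that cleaves angiotensin peptides, ranged from 7.02 to 25.4 CPM (median 12.1) in Mgmt-/- and from 3.32 to 8.46 CPM (median 6.91) in WT. Its log2 fold change was 1.13 (95% interval 0.61 to 1.65, adjusted p = 0.498). The highest WT livers overlapped the lowest Mgmt-/- livers. Ces1b, a carboxylesterase, ranged from 38.4 to 69.8 CPM (median 49.5) in Mgmt-/- and from 23.3 to 47.5 CPM (median 30.6) in WT, with a log2 fold change of 0.66 (0.34 to 0.98, adjusted p = 0.498). All but 1 of the WT livers lay at or below 32.7 CPM, under the lowest Mgmt-/- liver. Plin5, a lipid droplet coat protein, ranged from 20.9 to 43.3 CPM (median 24.9) against 12.4 to 23.0 CPM (median 15.7), with a log2 fold change of 0.67 (0.33 to 1.02, adjusted p = 0.823).

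Eefsec, the elongation factor that delivers selenocysteine, was the other gene whose groups did not overlap. It ranged from 12.6 to 17.1 CPM (median 15.1) in Mgmt-/- and from 5.66 to 12.1 CPM (median 8.41) in WT, with a log2 fold change of 0.77 (0.36 to 1.18, adjusted p = 0.910). The gap between the groups was narrow beside the spread within each. In the second run, 200803Eng, it did not pass the filter on low counts and was at 4.75, 5.82, 6.80 and 7.08 CPM in 4 Mgmt-/- livers and at 6.79, 6.95, 8.60 and 10.7 CPM in 4 WT livers, of which 6.95 CPM was D209074. There the groups overlapped and the higher values were those of WT. Lower in Mgmt-/-, and likewise not called, were Prok1 and Socs2. Prok1, a secreted prokineticin, ranged from 4.70 to 15.0 CPM (median 9.61) in Mgmt-/- and from 6.24 to 41.9 CPM (median 20.0) in WT (log2 fold change -1.14, -1.68 to -0.60, adjusted p = 0.498). It passed the test only when WT replicate D389037 was left out, at -1.27. Socs2, a feedback inhibitor of growth hormone signalling, ranged from 10.7 to 31.0 CPM (median 15.6) in Mgmt-/- and from 15.95 to 50.1 CPM (median 34.3) in WT (-0.87, -1.34 to -0.40, adjusted p = 0.910). For both genes the ranges of the genotypes overlapped.

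**Figure D3:**
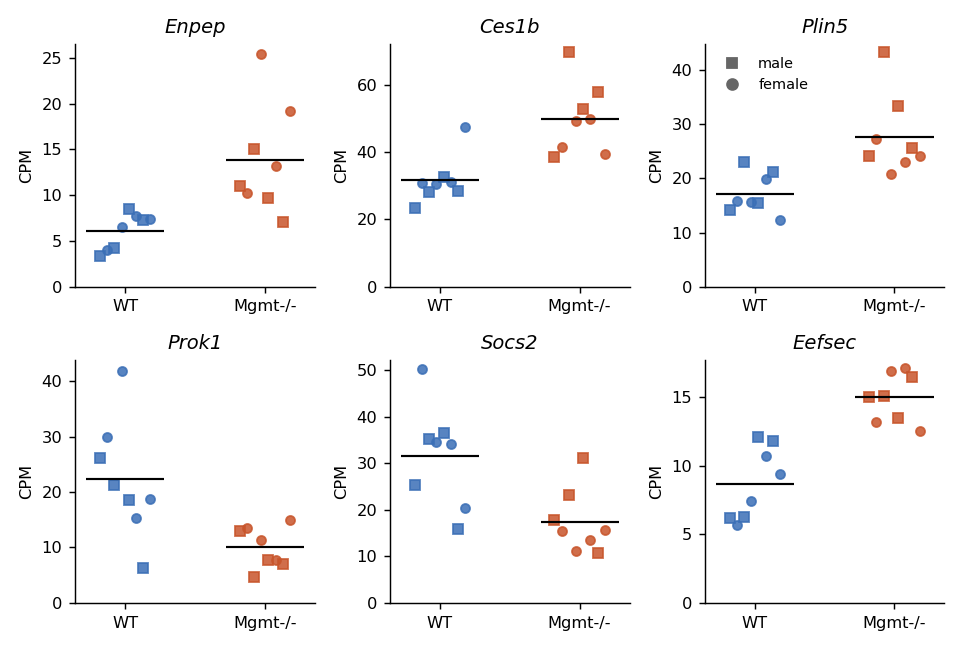
CPM of Enpep, Ces1b, Plin5, Prok1, Socs2 and Eefsec in each of the 16 day 1 saline libraries of run 191212Eng, by genotype, with squares for males, circles for females and a bar at the mean. The groups overlap for 5 of the genes and are separated for Eefsec (12.6 CPM and above against 12.1 CPM and below), and none of the 6 is called.

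A knockout can carry flanking chromosome from the strain in which it was made, so the neighbours of Mgmt were examined. Within 1 Mb there were 2 other tested genes, 9430038I01Rik at a log2 fold change of 0.05 (-0.46 to 0.56) and Glrx3, a monothiol glutaredoxin, at 0.06 (-0.23 to 0.34). Mki67, the proliferation marker on the other flank, was at 0.31 (-0.70 to 1.31). It reached 65.8 CPM in Mgmt-/- D389004, and every other liver of either genotype lay at or below 28.7 CPM. Within 5 Mb, 60 other genes were tested and 3 had an unadjusted p under 0.05. Among these 3 were Dock1 at -0.64 (-1.15 to -0.12) and Fuom at -0.26 (-0.49 to -0.03), neither of them called. Within 10 Mb, 118 other genes were tested, with log2 fold changes from -0.70 to 0.46 and a median of -0.01, and 5 of them had an unadjusted p under 0.05, beside 4.26% of all tested genes. None of the 170 genes tested within 20 Mb was called other than Mgmt. The genome was also cut into windows of 10 Mb, of which those with at least 20 tested genes were compared. The window starting at 130 Mb of chromosome 7 had 4 of 30 genes at an unadjusted p under 0.05 (13.3%), Mgmt included. The largest share lay elsewhere, in the window starting at 80 Mb of chromosome 1, with 10 of 34 genes (29.4%) and 0 called. The reason for that share was not tested. Of the genes known to differ between C57BL/6 substrains, 4 were tested and none was called, with Nnt at 0.26 (-0.02 to 0.54), Wdfy1 at 0.25 and Ide at 0.02.

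DNA repair came first among 21 gene lists, since MGMT acts alone but its substrate is shared with other routes. Members named for a list are among the 3 with the most reads, and other named members were picked for an unadjusted p under 0.05 after their values were seen. Of 15 tested genes of direct reversal and base excision repair, 1 was called (Mgmt), and the median was 0.16. Apex1, the abasic site nuclease, was at 41.2 ± 7.03 CPM in Mgmt-/- and 41.6 ± 7.28 CPM in WT (SD, n = 8 each), a log2 fold change of -0.01 (-0.32 to 0.29). Parp2, a break-sensing polymerase of ADP-ribose, was at -0.01 (-0.31 to 0.29) and Lig1, the replicative DNA ligase, at -0.14 (-0.55 to 0.27). In mismatch repair 7 genes were tested, 0 passed even an unadjusted p under 0.05, and the median was 0.12, with Mlh3 at 0.23 (-0.25 to 0.70). Of the 141 tested genes on the study's own DNA repair list, 1 was called (Mgmt), 5 were higher and 2 lower at an unadjusted p under 0.05 with Mgmt counted, beside 4.26% of all tested genes, and the median was 0.00.

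Genes that report DNA damage or interferon signalling included none that was called. Of 11 tested p53 targets 0 had an unadjusted p under 0.05, and the median was -0.17, with Perp, a desmosomal effector of p53, at -0.03 (-0.32 to 0.26), Fas, the death receptor, at -0.29 (-0.62 to 0.05) and Btg2, an antiproliferative gene, at -0.24 (-0.56 to 0.09). Cdkn1a, named for its role and encoding the cell cycle inhibitor p21, was between 6.04 and 22.7 CPM over all 16 libraries. Of 40 tested interferon effectors 0 were called, 0 were higher and 3 were lower at an unadjusted p under 0.05, beside 4.26% of all tested genes, with a median of -0.11. Ifitm3, a membrane protein that blocks viral entry, was at 1185 ± 200.1 CPM in Mgmt-/- and 1230 ± 222 CPM in WT (-0.05, -0.31 to 0.21), Iigp1, an immunity-related GTPase, at -0.03 (-0.29 to 0.22) and Bst2, which tethers virions, at 0.03 (-0.36 to 0.42). The 3 were Ubd, an interferon-induced ubiquitin-like protein, at -1.20, Zbp1, a sensor of Z-form nucleic acid, at -0.75, and Ifi27l2a at -0.37. The mean log2(CPM + 1) over the effectors ranged from 4.20 to 4.58 in Mgmt-/- livers and from 4.10 to 4.85 in WT livers, which enclosed it. On the study's interferon list 189 genes were tested, 3 were higher and 2 lower at an unadjusted p under 0.05, beside the same 4.26%, and the median was -0.01.

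Several hepatocyte functions had slightly positive medians without a called gene. Of 18 tested P450 enzymes that metabolise drugs and nitrosamines, 4 were higher and 0 lower at an unadjusted p under 0.05, a level that 4.26% of all tested genes reached, and the median was 0.25. Cyp2e1, the enzyme that activates NDMA, was at 2272 ± 921 CPM in Mgmt-/- and 1903 ± 549 CPM in WT (SD, n = 8 each; 0.25, -0.28 to 0.79). Cyp3a11 was at 0.20 (-0.09 to 0.49) and Cyp2c29 at 0.73 (0.19 to 1.26). Cyp2c29 was at 808 to 1017 CPM in WT D389001, D389007, D389013 and D389019 and at 1399 to 2018 CPM in the other WT livers. The Mgmt-/- livers ranged from 1003 to 4102 CPM. The same WT livers, which have the lowest replicate numbers, were also the lowest WT livers for Enpep, Eefsec and Prodh. Whether this order bears on the differences was not tested. The 14 tested periportal genes, whose zone receives the portal blood, had a median of 0.30, with the urea cycle enzymes Cps1 at 0.56 (0.04 to 1.08) and Ass1 at 0.49 (-0.02 to 0.99). The 12 pericentral genes had a median of 0.14, with Cyp1a2 at 0.44 (0.13 to 0.76) and Lect2 at -0.14. The 14 genes of bile acid synthesis and transport had a median of 0.18, with the uptake carriers Slco1b2 at 0.15 and Slc10a1 at 0.30 (0.03 to 0.56). The 22 Nrf2 targets and glutathione transferases had a median of 0.14, with the peroxiredoxin Prdx1 at -0.05 and the transferase Gsta3 at 0.08. The 18 hepatocyte maturation genes, which share P450s with the other lists, had a median of 0.18, with Cyp2c70, which makes muricholic acids, at 0.40 (0.13 to 0.68). The 12 fetal and imprinted growth genes had a median of -0.26, with H19 at -0.63 (-1.84 to 0.58), Afp at -0.59 (-2.04 to 0.87) and Igf2 at -0.70 (-2.12 to 0.71). The intervals of these last genes were wide because their levels differed several-fold among mice of the same genotype.

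The medians of the remaining lists are given together. The median was 0.04 over 31 genes of cell division, with the thymidylate synthase gene Tyms at -0.10, Birc5 at -0.08 and Rrm2 at 0.14, and 0.01 over 16 circadian genes. It was 0.02 over 20 genes of cholesterol synthesis, 0.07 over 13 of fatty acid synthesis and -0.01 over 25 of fatty acid oxidation. It was 0.03 over 19 acute phase proteins, 0.12 over 15 genes of the integrated stress and unfolded protein response and 0.07 over 7 heat shock genes. The 12 genes of the growth hormone axis had a median of -0.19, in which Igf1 was at 0.05 (-0.21 to 0.30) and Socs2 and Cish, both feedback inhibitors of that axis, were lower at an unadjusted p under 0.05. The 10 immediate early genes had a median of -0.18, with Jun at -0.89. Over the 21 lists the medians ran from -0.26 to 0.30 beside 0.01 over all tested genes, and no member other than Mgmt was called. Leaving out 1 mouse turned the sign of 7 of these medians. Without Mgmt-/- D389004 those of cell division, cholesterol synthesis, fatty acid synthesis, circadian genes and fatty acid oxidation were at -0.07, -0.05, -0.04, -0.12 and 0.04, that of mismatch repair was at -0.03 without Mgmt-/- D389016, and that of the acute phase proteins at -0.05 without Mgmt-/- D389046. Of the 14 lists that kept their sign, 9 moved by over 1.5 times when 1 mouse was left out. The interferon effectors were at -0.03 without WT D389031 and -0.19 without Mgmt-/- D389046, the repair genes of direct reversal and base excision at 0.08 and the fetal genes at -0.40 without Mgmt-/- D389004, and the growth hormone axis at -0.11 without WT D389019. The immediate early genes were at -0.10 without WT D389037, the maturation genes at 0.12 without WT D389001 and the pericentral genes at 0.22 without WT D389043. The stress response genes were at 0.07 and the heat shock genes at 0.14 without Mgmt-/- D389016, and the latter at 0.03 without WT D389025.

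**Figure D4:**
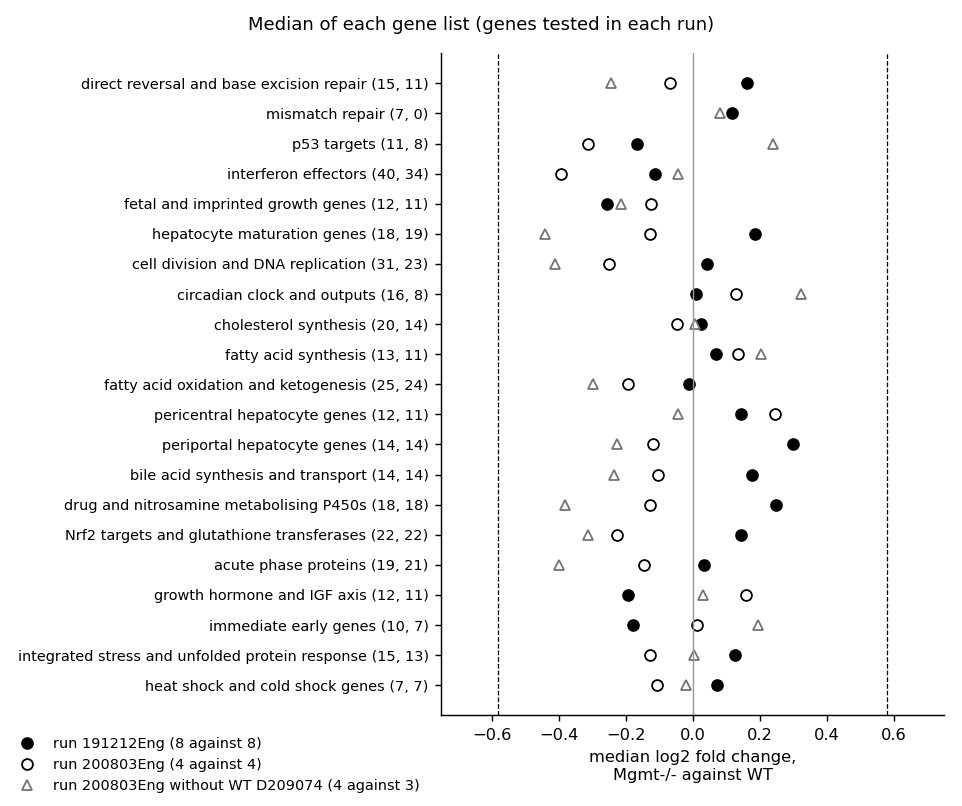
Median log2 fold change of Mgmt-/- against WT for each of 21 gene lists, with the number of genes tested in each run in brackets, dashed lines at ±0.58, filled circles for run 191212Eng, open circles for run 200803Eng and triangles for that run without WT replicate D209074. In run 191212Eng the medians lie between -0.26 and 0.30, and 13 of the 20 lists with a median in both complete runs have the opposite sign in the second.

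Markers of the other cells that a piece of liver holds overlapped between the genotypes. In bulk RNA, fewer cells of a type and less RNA per cell cannot be told apart. Red cell genes, of which 7 were tested, summed to 9456 to 26287 CPM (median 18077) in Mgmt-/- and to 9558 to 25062 CPM (median 17153) in WT, with most reads from the globin Hbb-bs. The macrophage and Kupffer cell genes summed to 488 to 1452 CPM (median 701) against 529 to 753 CPM (median 700.1), with most reads from Lyz2. Neutrophil genes summed to 52.1 to 964 CPM (median 189) against 161 to 293 CPM (median 174), with most reads from S100a8. The medians of these lists lay close together, and in each list the highest Mgmt-/- liver lay above every WT liver. Genes of T and NK cells had medians of 51.8 CPM and 52.2 CPM and those of B and plasma cells 17.1 CPM and 19.6 CPM. Cholangiocyte, stellate and endothelial genes overlapped as well, 0 of 6 kidney genes passed the filter on low counts, and no marker gene of any cell list was called.

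Individual mice stood apart from their genotype. WT female D389031 had Saa1 at 13968 CPM, Saa2 at 10040.4 CPM, Saa3 at 724 CPM and Lcn2 at 262 CPM, all secreted proteins of the acute phase response. The next highest WT values were 51.3, 23.9, 27.8 and 17.4 CPM, and they did not all come from the same liver. Among the 8 Mgmt-/- livers Saa1 ranged from 16.8 to 45.0 CPM. Saa1 was at -3.80 (-8.12 to 0.52) and Saa2 at -5.55 (-10.27 to -0.83, adjusted p = 1.00), and without that liver they were at -0.15 and -1.04, and Saa3 at -0.26. In males only, which leaves that liver out, Saa2 was at -1.41 and Saa3 at -0.44. None of these values was called. Mgmt-/- female D389010, which held most of the Mgmt reads of its group, also had the highest neutrophil sum. Mgmt-/- female D389046 had the highest macrophage sum and Afp at 1130.4 CPM, against 387 CPM in the next Mgmt-/- liver and 573 CPM in the highest WT liver. Whether these features bear on one another was not tested.

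The sexes were also fitted alone, which left 4 mice against 4. In males 1 of 8999 genes was called (0.0111%), Mgmt at -7.22. In females 6 of 8894 genes were called (0.0675%), Mgmt at -4.74 and 5 genes that were higher in Mgmt-/-. These were Lyz2, lysozyme of macrophages, at 0.90, the ribosomal protein genes Rps9 at 0.80 and Rpl31 at 1.51, Stt3a, a subunit of oligosaccharyltransferase, at 0.86 and Cbs, cystathionine beta-synthase, at 0.84. In males the same 5 genes were at -0.02, 0.03, -0.39, -0.10 and -0.01 in that order. At an unadjusted p under 0.05 edgeR counted 933 of 8894 genes in females and 251 of 8999 in males. The genotype by sex interaction called 0 of 8845 genes (0%), with 617 at an unadjusted p under 0.05 by edgeR and 592 by limma, which also called 0. For these 5 genes its adjusted p ranged from 0.322 to 0.552, so a difference between the sexes was not shown.

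Rps9 ranged from 667 to 843 CPM in the 4 Mgmt-/- females and from 301 to 583 CPM in the other 12 livers. Rpl31 ranged from 18.8 to 29.3 CPM in those females and from 4.84 to 13.9 CPM in the others. Lyz2 ranged from 189 to 272 CPM against 91.9 to 156 CPM. For all 3 genes the Mgmt-/- females lay above each of the other 12 livers compared, as did 58 of the 8894 genes tested in females (0.652%), and 298 genes (3.35%) were higher in all 4 Mgmt-/- females than in any WT female. These 3 genes had been called on the same females, so their separation from the WT females is a description. The other 2 called genes overlapped, with Stt3a at 130 CPM in the lowest Mgmt-/- female and 130.3 CPM in WT male D389025, and Cbs at 269.5 CPM against 286 CPM in WT male D389037. In NDMA-treated pups of the same run, Rps9 lay at 952 to 1215 CPM in 3 Mgmt-/- females and at 351 to 692 CPM in the other 12 livers. In saline pups of run 200803Eng the order was the opposite, with 448 and 707 CPM in 2 Mgmt-/- females and 756 and 906 CPM in 2 WT females, the latter being replicate D209074. Rpl31 likewise lay at 28.8 to 44.8 CPM in the 3 NDMA-treated Mgmt-/- females and at 6.89 to 18.2 CPM in the other 12 livers, whereas in run 200803Eng it was at 21.3 and 25.2 CPM in the Mgmt-/- females and at 33.2 and 32.4 CPM in the WT females, the latter being D209074. The other 3 genes did not separate the Mgmt-/- females in either group. With NDMA, Lyz2 was at 261 to 479 CPM in them and 162 to 683 CPM in the other livers, Stt3a at 90.8 to 227 against 88.7 to 203 CPM and Cbs at 104 to 290 against 198 to 339 CPM. In run 200803Eng, the 2 Mgmt-/- females had Lyz2 at 121 and 165 CPM, Stt3a at 51.0 and 53.6 CPM and Cbs at 144 and 171 CPM. The 2 WT females, with D209074 second, had Lyz2 at 164 and 247 CPM, Stt3a at 70.1 and 25.5 CPM and Cbs at 146 and 59.1 CPM.

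**Figure D5:**
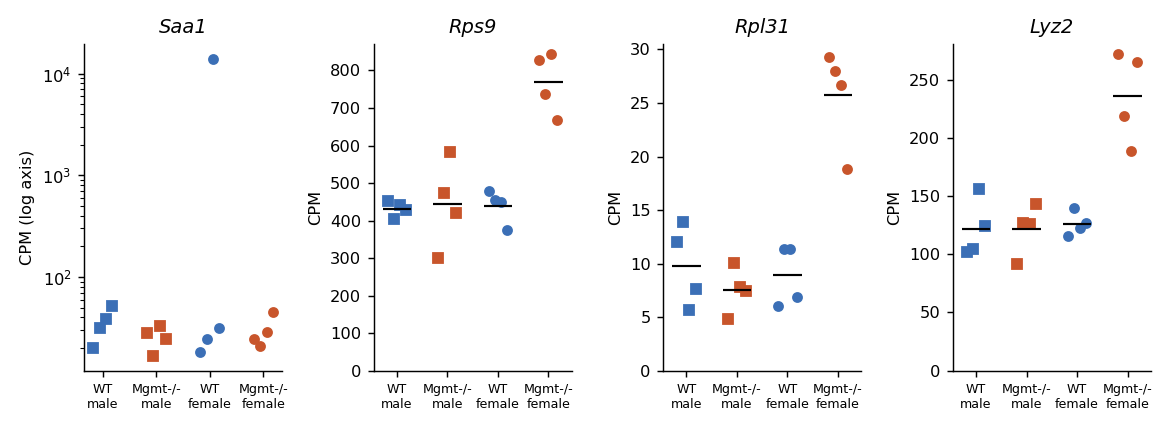
CPM of Saa1 (log axis), Rps9, Rpl31 and Lyz2 in each of the 16 day 1 saline libraries of run 191212Eng by genotype and sex, with WT in blue, Mgmt-/- in orange and, except for Saa1, a bar at the mean of each 4 mice. One WT female has Saa1 at 13968 CPM while none of the other 15 exceeds 51.3 CPM, and the 4 Mgmt-/- females lie highest for the other 3 genes.

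A second run, 200803Eng, held 4 Mgmt-/- and 4 WT saline pups of the same age, 2 males and 2 females each, at 583033 to 2748781 reads. One of its libraries, the WT female labelled saline with replicate name D209074, stood apart from the other 7. Cdkn1a was at 246 CPM in it and between 9.05 and 22.9 CPM in the other 7, while NDMA-treated WT pups of run 191212Eng, normalised separately, lay between 162 and 256 CPM. The p53 targets Ccng1 (99.6 CPM), Bax (131 CPM) and Eda2r (11.6 CPM) were likewise within or above the range of the NDMA-treated WT pups, and the other 7 libraries had at most 22.2, 24.6 and 0.850 CPM. Cyp2e1 was at 180 CPM in it and at 1227 to 3664 CPM in the others. Its Mgmt level of 88.0 CPM also lay within the 24.5 to 93.7 CPM of the NDMA-treated WT pups. Its saline label is therefore in doubt, and the values of the complete second run compare saline mice only if that label is right. The main results of the second run are given with and without that library, a choice made after the data were seen.

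With all 8 libraries 1 of 6507 genes was called (0.0154%), Mgmt. Without D209074 the count was 3 of 6933 (0.0433%), Mgmt at -5.23, Afp at -2.02 (adjusted p = 2.80e-06) and Mir122, the host transcript of the liver microRNA miR-122, at 1.63 (adjusted p = 0.00879). Afp, alpha-fetoprotein of the fetal liver, was at 56.2 to 91.0 CPM in the 4 Mgmt-/- livers and at 90.3 to 411 CPM in the 4 WT livers, the lowest of which was D209074. In run 191212Eng its ranges overlapped broadly, at 32.2 to 1130.4 CPM in Mgmt-/- and 144 to 573 CPM in WT (-0.59, -2.04 to 0.87). The intervals of the second run were wider, and 66.2% of them lay inside ±1, or 55.9% without D209074. By edgeR, 362 of 6507 genes had an unadjusted p under 0.05 in the second run, and 766 of 6933 without D209074. In run 191212Eng the count was 377 of 8845.

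Mgmt was the one gene that both runs called. Over the 6416 other genes tested in both, the log2 fold changes had a Pearson r of -0.10 and a Spearman rho of -0.12, as a description across genes that are not independent, and 45.2% had the same sign. Without D209074 these were -0.18, -0.21 and 42.0% over 6810 genes. Of the genes with an unadjusted p under 0.05 in run 191212Eng, 36.9% of 274 kept their sign in the second run, or 31.4% of 287 without D209074. Enpep did not pass the filter on low counts in the second run and was at 5.82, 7.08, 7.65 and 10.3 CPM in Mgmt-/- and at 1.16 (D209074), 5.36, 6.79 and 12.3 CPM in WT, so the groups overlapped. Prok1 was at 0.91 there, opposite to its -1.14, and Ces1b was at -0.15 and Plin5 at 0.30, or at 1.07, -0.32 and 0.12 in that order without D209074. The second run gave Srebf1, the master regulator of lipid synthesis, at 1.16 against 0.24 in run 191212Eng, and Akr1c18, a hydroxysteroid dehydrogenase, at -1.66 against -0.66, and without D209074 they were at 1.09 and -1.62. With all libraries and the filter on low counts edgeR called none of these in either run. Without the filter it called Akr1c18 and Afp among 13 genes of the second run, and DESeq2 called Akr1c18, Afp and Hamp2 beside Mgmt in the complete second run and Afp, Cyp2c50 and Mir122 beside Mgmt without D209074.

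Socs2 had the smallest p after Mgmt when both runs were fitted together. It was at 11.6 to 39.1 CPM (median 29.1) in the Mgmt-/- livers of the second run and at 26.6 to 71.5 CPM (median 51.8) in the WT livers, a log2 fold change of -0.88 (-1.59 to -0.16, adjusted p = 0.770), or -1.07 without D209074 (adjusted p = 0.268). With both runs in one fit and a term for run it stood at -0.89 (adjusted p = 0.297), or -0.94 without D209074 (adjusted p = 0.121), and 1 of 8546 genes was called in that latter fit (0.0117%), Mgmt. Prodh, which starts the breakdown of proline, was at 0.94 and 1.21 in the 2 runs, and Vnn1, a pantetheinase, at -0.66 and -1.49, where the second values were 1.05 and -1.30 without D209074. Socs2, Prodh and Vnn1 were among 18 genes other than Mgmt with an unadjusted p under 0.05 in both runs, of which 7 had the same sign and 11 the opposite sign, or 9 and 34 of 43 without D209074. In the second run edgeR called Prodh without WT replicate D209068 and Vnn1 without the filter on low counts. The genotype by run interaction called 0 of 8437 genes (0%), with 558 at an unadjusted p under 0.05 by edgeR and 672 by limma, which also called 0. Without D209074 it called 0 of 8546 (0%), with 938 and, by limma, 1139 at an unadjusted p under 0.05, and limma again called 0.

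The list medians of the runs are set side by side here. The median of the P450s was 0.25 in run 191212Eng and -0.12 in the second run, or -0.38 without D209074, and that of the periportal genes 0.30 against -0.12, or -0.23 without D209074. The interferon effectors had a median of -0.39 in the second run and of -0.04 without D209074, and the p53 targets -0.31 and 0.24. Without D209074, 6 of 18 tested P450s and 7 of 25 genes of cell division were lower at an unadjusted p under 0.05. With all 8 libraries these counts were 1 of 18 and 2 of 23, and 0 were higher in either fit. Of 7 tested red cell genes, 6 were higher and 0 lower at that level in both fits. None of the genes in these 3 lists was called. The red cell genes had a median of 0.13 in run 191212Eng and of 0.97 in the second run (0.85 without D209074), where they summed to 12862, 22561, 29118 and 34374 CPM in Mgmt-/- and to 8893, 9243, 12840 and 18646 CPM in WT, the lowest being D209074. The WT and Mgmt-/- sums overlapped with and without that library. Hba-a1 and Hba-a2, the near-identical alpha globin genes on that list, had the same count in every library and cannot be told apart. Of 13 cell lists in the second run the sums of 11 overlapped between the genotypes and 2 did not, where 3.57% of all tested genes of that run did not overlap. Neutrophil genes, with most reads from S100a8, summed to 771, 825, 1072 and 1413 CPM in Mgmt-/- and to 324, 374, 630 and 656 CPM in WT. Genes of B and plasma cells, with most reads from Vpreb3, summed to 40.5, 44.4, 47.6 and 80.8 CPM in Mgmt-/- and to 23.2, 35.8, 36.2 and 38.5 CPM in WT. In both lists the Mgmt-/- livers were higher and D209074 was the lowest, so the groups were apart without it as well, whereas in run 191212Eng both lists overlapped. The part of these cell markers in the other differences of the second run was not tested.

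At 10 months, the saline mice of run 200803Eng were 5 males and 7 females of Mgmt-/- and 1 male and 2 females of WT. With a term for sex, edgeR called 2 genes of 8304 (0.0241%), Mgmt and Sult2a3, a sulfotransferase of hydroxysteroids. DESeq2 called 6 genes higher and 5 lower, Sult2a3 among them, and limma called Mgmt and Slco1a1. Sult2a3 ranged from 0 to 99.2 CPM (median 29.3) in 12 Mgmt-/- livers and was at 0, 2.19 and 6.52 CPM in 3 WT livers (3.73, adjusted p = 0.00151), and it was no longer called without WT replicate D209055 or by limma. In the saline pups of run 191212Eng it ranged from 4.30 to 21.8 CPM (median 13.1) in Mgmt-/- and from 3.95 to 12.3 CPM (median 6.74) in WT, a log2 fold change of 0.81 (0.27 to 1.36, adjusted p = 1.00). With only 3 WT mice the month 10 count moved from 1 to 25 as single WT mice were left out.

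Under NDMA in run 191212Eng edgeR called 16 of 9529 genes between the genotypes (0.168%), 10 higher and 6 lower in Mgmt-/-. DESeq2 on the same reads called 52 higher and 32 lower. Of the 15 genes other than Mgmt that edgeR called, 12 were tested in the saline pups of the same run. There their log2 fold changes lay between -0.46 and 0.73 and 0 were called. Spp1, osteopontin, was at -1.51 with NDMA and 0.01 (-0.24 to 0.27) with saline, Cyp2c29 at -1.28 and 0.73, and Ddit3, the stress transcription factor CHOP, at 1.14 and 0.21. The difference between the treatments was not tested here.

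The deposited values themselves could not be compared across the 2 tables. Set side by side and tested by limma at log2(value + 1), they called 1502 of 8845 genes (17%), 1499 of them higher in Mgmt-/-, and the median log2 fold change over all genes was 0.42. After the reads were normalised together the median was 0.01 and the count was the 1 gene reported above. The scale of the separately normalised tables moved with genotype, and the values of every gene above come from the joint normalisation.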

How the data were processed

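Liver RNA was sequenced from 3′ ends. Per the labels and methods, the authors used STAR for alignment (GRCm38/mm10) and ESAT for counting per gene, then divided the counts by DESeq2 size factors, each genotype in its own table. Tool versions, and whether molecular identifiers were collapsed, are not given in the sources used here. The deposited signal values are thus gene counts over 1 factor per library, and 100% of the values used were whole multiples of the column's smallest value within 0.01, which gave whole reads. Of 213 columns, 158 were not analysed here, and 1 NDMA library whose factor was too near 1 was left out.

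Reads on shared symbols were tested with edgeR 4.0.16 (filterByExpr by genotype, TMM, robust quasi-likelihood fit, terms for sex and genotype, Benjamini-Hochberg adjustment over all tested genes). edgeR was used because whole reads were recovered from signal values. Called genes had an adjusted p under 0.05 with a log2 fold change beyond 0.58 either way, and intervals are at 95%. Alternatives used DESeq2 1.42.0, limma 3.58.1, other scalings and filters, and omission of each mouse in turn in the saline pups of both runs and of each WT mouse at 10 months. The pipeline was tested on simulated data. Pairs of libraries within every group differed by more than counting noise (chi-square per degree of freedom at least 1.94). Mgmt was named by rule. List members are named from the 3 with most reads or for an unadjusted p under 0.05 after their values were seen. Cdkn1a was named for its role. Some genes are not reported here. Members, lists and named genes were chosen with earlier results of these data known. Columns with the authors' own comparisons were not used. Promoter letters are from RefSeq. Floors on reads cover counting error only. The intervals of the log2 fold changes come from the quasi-likelihood fit and include the spread between these mice.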

Additional observations from a re-analysis of the deposited data

Results flagged for a closer look

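In the 16 saline libraries of run 191212Eng, 72 sets of 8 values were examined for 1 library lying apart, by Dixon's criterion of a gap above 0.526 of the range. The sets were some of the named genes, and summed cell markers, within a genotype. Mki67, at 65.8 CPM in Mgmt-/- D389004 and 28.5 CPM in the next Mgmt-/- liver, was not among them. The criterion was met in 15 sets (20.8%). By chance about 1 in 20 sets of unselected values meets it, but genes such as Saa1, Saa2, Saa3 and Lcn2 were named because 1 library stood out and the sets share libraries, so the count is a description only. WT female D389031 accounted for Saa1 (13968 CPM), Saa2 (10040.4 CPM), Saa3 (724 CPM) and Lcn2 (262 CPM). Mgmt-/- female D389046 accounted for Afp (1130.4 CPM), Lcn2 (63.1 CPM), and the sums of the hepatocyte (195827 CPM), macrophage and Kupffer cell (1452 CPM) and T and NK cell (99.7 CPM) markers. Mgmt-/- female D389010 accounted for Mgmt (3.95 CPM) and the sums of the neutrophil (964 CPM) and B and plasma cell (54.3 CPM) markers. The others were Srebf1 in Mgmt-/- male D389004 (93.5 CPM), Ces1b in WT female D389043 (47.5 CPM) and the T and NK cell sum in WT male D389037 (71.1 CPM). No explanation of these values was tested.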

How the results depend on the processing

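The width of the intervals limits the comparison: 90.9% of intervals lay inside ±1 and 47.9% inside ±0.58. The count for run 191212Eng was 1 under the other scalings, DESeq2, limma at each pseudocount, no filter, no sex term and thinned reads. It was 0 at a mean of at least 20 CPM and 0 without genes within 20 Mb, both of which remove Mgmt, 6 in females only, and 1502 on the deposited values. Leaving out each mouse gave 1 to 2 in run 191212Eng (2 without WT D389037), 1 to 3 in run 200803Eng (3 without Mgmt-/- D209090, WT D209068 or WT D209074) and, where only the 3 WT mice were left out in turn, 1 to 25 at 10 months (25 without WT D209049, 1 without WT D209055). In run 200803Eng DESeq2 called 4 and no filter gave 13, and without D209074 DESeq2 called 4 and limma 2. DESeq2 called 11 genes at 10 months and 84 with NDMA (52 higher, 32 lower) against 16. Mgmt itself lay between -7.22 and -3.86 in every alternative that tested it. Log2 fold changes changed sign for Srebf1 in females (-0.035) and without Mgmt-/- D389004 (-0.037), for Afp in females (0.73), in males for Cbs (-0.0057), Lyz2 (-0.020), Rpl31 (-0.39) and Stt3a (-0.10), and for Lcn2 on the deposited values (0.33) and without WT D389031 (0.56, with a range of -1.11 to 0.56 as each mouse was left out). The causes were not tested. No paired analysis was run. The labels name no litter or pair, and no 2 groups share a replicate name. The names carry running numbers within each sequencing run, and a block by that order was not tested. In run 191212Eng each genotype and sex of the saline pups was numbered at a fixed step, as in D389010, D389022, D389034 and D389046 for Mgmt-/- females. The NDMA-treated Mgmt-/- females, in which Rps9 and Rpl31 were again higher, continue that step as D389058, D389070 and D389082. A position in that numbering cannot be told apart from genotype by sex.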
